A study of Mus musculus with 14 samples.

Results

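Tubulin isotypes are the products of separate genes for α-tubulin and β-tubulin, and 10 of these genes were followed here: the β genes *Tubb6*, *Tubb2a*, *Tubb2b*, *Tubb3*, *Tubb4b*, and *Tubb5* and the α genes *Tuba1a*, *Tuba1b*, *Tuba1c*, and *Tuba4a*. They were taken by name from the 55450 annotated genes of the mouse. The set was chosen by measured values of *Tubb6*, whose FPKM differed between mutant and WT cells in a way that was unlike in the 2 experiments. All values of *Tubb6*, between genotypes and between cultures, are therefore given as a description with no test, and the other isotypes entered as its family, by name. A gene was read from its named row or, where a library had none, from the assembled locus that shared at least 0.8 of the joint span with the gene. By this rule 9 of the 10 genes had a value in all libraries of the first experiment, 7 had a value in all 14 libraries, and *Tubb3* had none and was not analysed here.

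α- and β-tubulin form a dimer, and dimers join end to end into the protofilaments of a microtubule. Most of the sequence of an isotype is shared with the others of its class, and the isotypes differ chiefly in the acidic tail at the carboxy terminus, which faces away from the microtubule wall and is where motors and modifying enzymes act. Cells also adjust their tubulin mRNA to the amount of free dimer, by a decay of tubulin mRNA during translation that is known as tubulin autoregulation. In T cells microtubules carry the centrosome and the lytic granules toward the contact with a target cell, and they build the spindle of dividing cells.

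RNA-Seq was carried out on naive CD4+ T cells of C57BL/6 mice, sorted from spleen and lymph nodes. They were cultured for 3 days with anti-CD3, anti-CD28, and IL-2 and no polarizing cytokine, and purified again as viable cells. The methods give mice of both sexes, aged 6 to 12 weeks, for the study as a whole. For the restimulated cells the paper refers to an earlier study and does not restate the sorting steps. The first experiment held 4 WT and 4 HDAC1cKO-HDAC2HET libraries, the latter from Hdac1 fl/fl Hdac2 fl/+ Cd4-Cre mice, in which *Hdac1* is deleted on both chromosomes and *Hdac2* on a single chromosome. The second held 3 WT and 3 HDAC1cKO libraries, the latter from Hdac1 fl/fl Cd4-Cre mice, which keep *Hdac2* whole, and its cells were restimulated with anti-CD3 for another 12 hours. Cd4-Cre acts from the thymus onward in all αβ T cells, so the mutant cells had lost the deleted alleles before the culture began. The 2 experiments differ in genotype and in culture at the same time. 

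All values are FPKM, the fragments of a gene scaled to the length of its transcript and to the mapped fragments of the library, so levels can be compared between genes. The confidence bounds in the tables correspond to about 22600000 to 53300000 fragments a library, and the half-width of the bounds around an isotype's FPKM was at most 12.8% of the value. *Hdac1* averaged 78.1 FPKM (SD 1.44, n = 4) in WT against 8.30 FPKM (SD 1.89, n = 4) in HDAC1cKO-HDAC2HET libraries, and 75.6 (SD 4.78, n = 3) in restimulated WT against 10.1 (SD 1.82, n = 3) in HDAC1cKO libraries. *Hdac2* was 59.0 ± 1.04 and 35.4 ± 1.36 FPKM (SD, n = 4) in the first experiment and 72.4 ± 8.65 and 80.4 ± 6.91 (SD, n = 3) in the second. The T cell markers summed to between 1155 and 1510.0 FPKM in every group, while the 5 of 7 myeloid, 2 of 3 NK cell, and 2 of 4 erythroid markers with a value in every library each had a group mean under 1 FPKM. The myeloid marker *Cd68*, which has a value in all libraries but 1 and is not in that count, averaged 2.80, 2.96, 5.05, and 4.52 FPKM in WT, HDAC1cKO-HDAC2HET, restimulated WT, and HDAC1cKO cells. *Xist* was above 1 FPKM in 4 of 4 WT, 4 of 4 HDAC1cKO-HDAC2HET, 2 of 3 restimulated WT, and 0 of 3 HDAC1cKO libraries, so sex cannot be told apart from genotype in full in the second experiment. WT restimulated replicate 1 had the lowest value of its group for 6 of the 7 isotypes with a value in all libraries, and results that rest on it are also given without it.

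The last 60 coding bases of β genes, which end with the stop codon, encode most of the acidic tail and are shown because this is where isotypes of the same class are known to differ most. The sequences are those of GENCODE vM21 on GRCm38. Capitals mark bases with no identical base opposite them when the coding sequence was aligned with that of *Tubb5*, the most abundant isotype of these cells.
Tubb5: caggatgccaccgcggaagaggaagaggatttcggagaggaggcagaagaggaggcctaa
Tubb4b: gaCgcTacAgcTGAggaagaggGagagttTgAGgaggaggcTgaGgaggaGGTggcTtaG
Tubb2a: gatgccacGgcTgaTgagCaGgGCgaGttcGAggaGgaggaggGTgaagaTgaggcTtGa
Tubb2b: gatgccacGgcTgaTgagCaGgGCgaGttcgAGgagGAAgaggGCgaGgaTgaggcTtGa

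*Tubb2a*, *Tubb4b*, and *Tubb2b* differed from *Tubb5* at 16, 17, and 19 of these bases. Over the whole coding sequence *Tuba1a* and *Tuba1b* were 98.3% identical, *Tuba1b* and *Tuba1c* 97.9%, and *Tubb2a* and *Tubb2b* 96.5%, whereas *Tuba4a* was at most 85.3% identical to another α gene of the set and *Tubb6* at most 85.9% identical to another β gene. Since reads of 50 bases were mapped, the share of 50-base windows of each transcript that also occur in a transcript of another gene was counted. It was 0 for *Tubb6*, 0.115% for *Tubb5*, and 1.11% for *Tuba4a*. It was 39.3% for *Tubb2b*, 49.6% for *Tubb2a*, 50.9% for *Tubb4b*, 61.0% for *Tuba1c*, 72.9% for *Tuba1a*, and 73.8% for *Tuba1b*. *Tubb2a* and *Tubb2b* shared 712 windows with each other, *Tuba1b* and *Tuba1c* shared 1005, and *Tubb4b* shared 675 with its pseudogene *Tubb4b-ps1*. The values of *Tubb6*, *Tubb5*, and *Tuba4a* therefore rest almost wholly on reads with a single origin among annotated transcripts, and the values within the pair *Tubb2a* and *Tubb2b* and within the trio *Tuba1a*, *Tuba1b*, and *Tuba1c* depend on how reads that fit several genes were divided. *Tuba4a* also overlaps the 3' end of *Stk16*, which lies on the other strand, and whether strand was used in the estimates is not given in the sources used here.

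**Figure D1:**
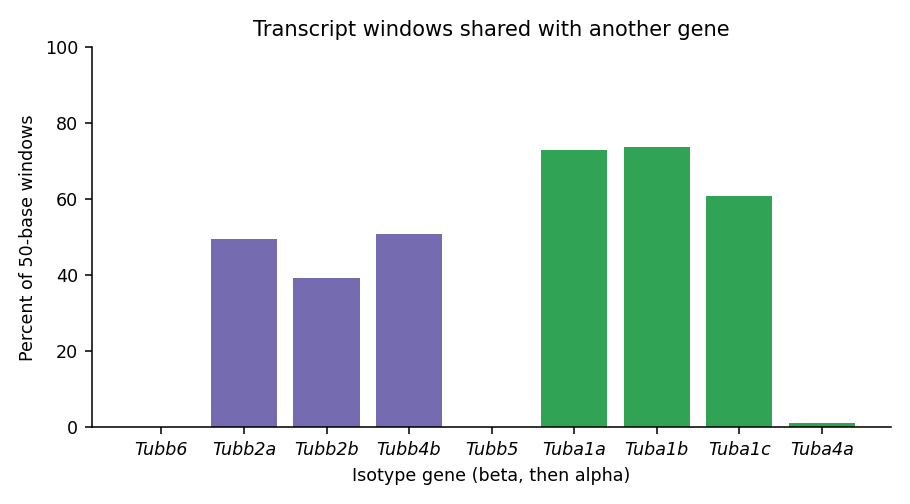
Percent of the 50-base windows of each isotype transcript that occur letter for letter in a transcript of another gene, with β genes in purple and α genes in green. *Tubb6* has none and *Tubb5* and *Tuba4a* are at 0.115% and 1.11%, while the other isotypes lie between 39.3% and 73.8%.

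In WT CD4+ T cells after 3 days, transcripts of *Tubb5* and *Tubb4b* made up nearly all of the β-tubulin mRNA and *Tuba1b* was the leading α isotype. *Tubb5* stood at 765 ± 12.7 FPKM (SD, n = 4), *Tubb4b* at 188.6 ± 9.82, and *Tuba1b* at 187 ± 6.63. *Tubb4b* and *Tuba1b* did not differ beyond their spread. *Tuba1a* followed with 62.5 ± 6.17, *Tuba4a* with 55.5 ± 1.86, and *Tuba1c* with 38.8 ± 1.24 FPKM, and the ranges of *Tuba1a* and *Tuba4a* overlapped. *Tubb6*, *Tubb2a*, and *Tubb2b* were the scarce β isotypes of the set, at 8.85 ± 0.997, 6.15 ± 0.749, and 5.69 ± 0.485 FPKM, and the last 2 overlapped.

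**Figure D2:**
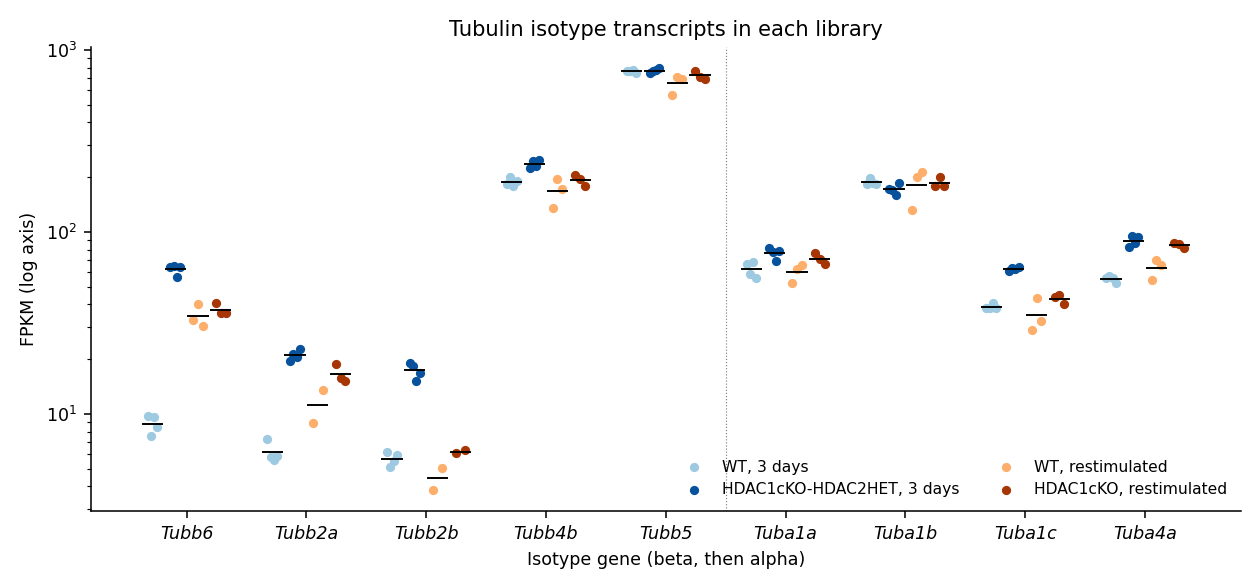
FPKM of each isotype on a log axis, with a point for each library and a black bar at the group mean, for WT and HDAC1cKO-HDAC2HET cells after 3 days and WT and HDAC1cKO cells after restimulation. The 4 HDAC1cKO-HDAC2HET values of *Tubb6* (56.9 to 65.1) lie above all 4 WT values (7.59 to 9.70), while the restimulated groups overlap (30.3 to 40.4 in WT and 35.9 to 40.6 in HDAC1cKO).

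The first comparison asked how tubulin isotype transcripts differ between HDAC1cKO-HDAC2HET and WT CD4+ T cells after 3 days of activation. The 3 scarce β isotypes were 3.05 to 7.07 times as high in the mutant, 3 of the 4 α isotypes and *Tubb4b* rose by less, and the major isotypes *Tubb5* and *Tuba1b* did not pass the test. Of the 8 isotypes other than *Tubb6*, 6 rose and 0 fell at an adjusted p of at most 0.05 (limma, Benjamini-Hochberg over all genes tested), and their median log2 fold change was 0.51. Of all 15138 genes tested, 24.2% rose and 27.6% fell, and the median was -0.04. The same 6 isotypes were those whose groups did not overlap, and 23.4% of all genes had no overlap in this direction. At a fold change of at least 2 as well, 2 isotypes rose, against 5.59% of all genes. 

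*Tubb6*, a β isotype found at low levels in many tissues, lies on chromosome 18 (67390717 to 67402749, GRCm38, plus strand, ENSMUSG00000001473). Its WT libraries read 9.70, 7.59, 9.60, and 8.53 FPKM and its HDAC1cKO-HDAC2HET libraries 64.0, 65.1, 56.9, and 64.3 FPKM. Every mutant library was far above every WT library, and the ratio of the means was 7.07. The difference on the log2 scale was 2.81 (SE, the standard error, 0.09), with *Tubb6* moving from slightly above *Tubb2a* in WT cells to about the level of *Tuba1c* in mutant cells.

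*Tubb2a* and *Tubb2b*, a pair of neighbouring β genes known for their high levels in neurons, lie on the minus strand of chromosome 13 (34074274 to 34078007 and 34126748 to 34130466). *Tubb2a* read 7.26, 5.84, 5.62, and 5.90 FPKM in WT and 19.5, 21.4, 20.6, and 22.8 in HDAC1cKO-HDAC2HET libraries. Its log2 fold change was 1.76 (SE 0.09, limma's adjusted p = 4.39e-06). *Tubb2b* read 6.20, 5.12, 5.49, and 5.96 FPKM in WT and 19.1, 18.3, 15.2, and 16.8 in HDAC1cKO-HDAC2HET libraries, a log2 fold change of 1.59 (SE 0.09, limma's adjusted p = 6.41e-06). Both genes were higher in all mutant libraries than in any WT library. Since the pair shares windows, the 2 values are not independent of each other. Neuronal markers stayed near 0 in both groups. The 3 of 8 neuron markers with a value in every library summed to between 0 and 0.0255 FPKM in WT and between 0.00672 and 0.0312 FPKM in HDAC1cKO-HDAC2HET cells, with *Stmn2* listed at 0 throughout.

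The 2 abundant β isotypes, which are the ones most tissues use, differed from each other. *Tubb4b* (chromosome 2, 25222160 to 25224702, minus strand) read 183.2, 202, 179, and 190.5 FPKM in WT and 225, 244, 230.0, and 249 in HDAC1cKO-HDAC2HET libraries, with no overlap between the groups. It rose by a log2 fold change of 0.33 (SE 0.05, limma's adjusted p = 8.25e-04). *Tubb5* (chromosome 17, 35833921 to 35838306, minus strand) read 763, 769.7, 779.7, and 749.6 FPKM in WT and 743, 766, 776, and 791 in HDAC1cKO-HDAC2HET libraries. Its groups overlapped almost entirely, and its log2 fold change was 0.01 (SE 0.03, limma's adjusted p = 0.880).

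Among the α isotypes, *Tuba1c* and *Tuba4a* changed most. *Tuba1c* (chromosome 15, 99029891 to 99038110, plus strand) read 38.1, 38.0, 40.6, and 38.4 FPKM in WT and 61.2, 63.6, 62.5, and 64.6 in HDAC1cKO-HDAC2HET libraries, a log2 fold change of 0.70 (SE 0.03, limma's adjusted p = 2.92e-06). *Tuba4a* (chromosome 1, 75214228 to 75219865, minus strand), whose mRNA does not encode the terminal tyrosine that other α isotypes carry, read 56.2, 57.0, 56.0, and 52.8 FPKM in WT and 82.2, 94.5, 86.6, and 94.1 in HDAC1cKO-HDAC2HET libraries, a log2 fold change of 0.68 (SE 0.05, limma's adjusted p = 2.57e-05). For both genes all mutant libraries were above all WT libraries. *Tuba1a* (chromosome 15, 98949837 to 98953703, minus strand), the main α isotype of developing neurons, rose by a log2 fold change of 0.30 (SE 0.08, limma's adjusted p = 0.0163), from 55.8 to 68.8 FPKM across WT libraries to 68.9 to 81.3 FPKM across mutant libraries, so the groups only just separated. *Tuba1b* (chromosome 15, 98931425 to 98934565, minus strand) read 183.8, 197, 184.8, and 182.7 FPKM in WT and 171, 171, 159.9, and 185.01 in HDAC1cKO-HDAC2HET libraries, which overlap. Its log2 fold change was -0.12 (SE 0.05, limma's adjusted p = 0.0649). *Tuba1b* passed the threshold without HDAC1cKO-HDAC2HET replicate 4, at -0.16 (limma's adjusted p = 0.0188), and with quantile normalization, at -0.24 (limma's adjusted p = 0.00387), while *Tuba1a* missed it with the latter (0.23, limma's adjusted p = 0.0556).

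**Figure D3:**
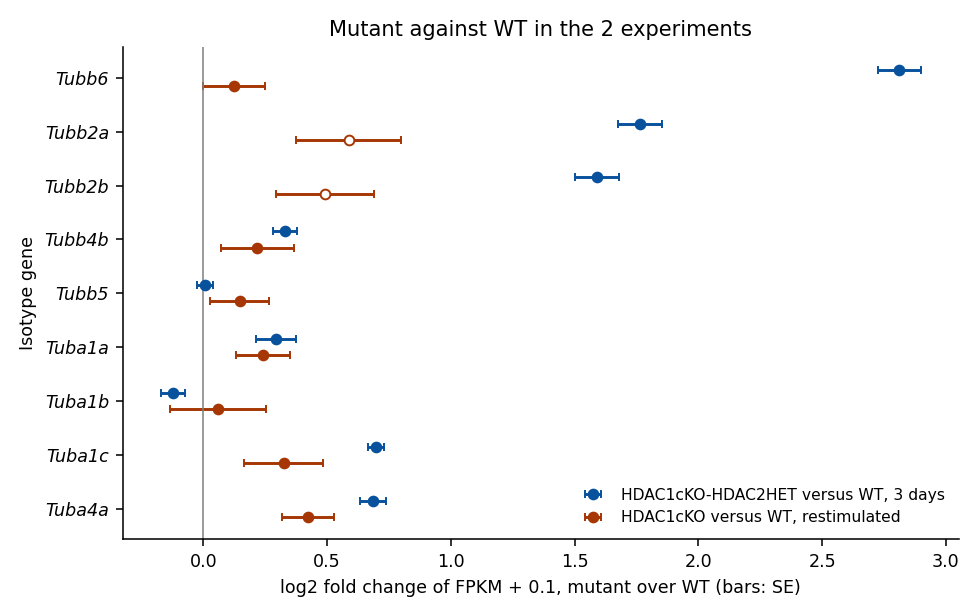
log2 fold change of each isotype, mutant over WT, with bars of 1 standard error, in the HDAC1cKO-HDAC2HET experiment (blue) and the HDAC1cKO experiment (brown). Open points are *Tubb2a* and *Tubb2b* in the second experiment, fitted with the libraries that have no locus of the gene left missing; *Tubb6* stands at 2.81 in the first experiment and at 0.13 in the second.

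Both the totals and the isotype mix differed between the groups. The β isotypes summed to 975 ± 12.8 FPKM (SD, n = 4) in WT and 1107 ± 30.9 in HDAC1cKO-HDAC2HET cells, and the α isotypes to 344 ± 9.85 and 401 ± 18.7. The β sums ranged from 960 to 990 and from 1070 to 1144 FPKM. The α sums ranged from 330 to 351 and from 378 to 422 FPKM, so neither overlapped. The ratio of α to β sums, over *Tubb5*, *Tubb4b*, and *Tubb6*, was 0.357 ± 0.00649 and 0.375 ± 0.0132, with ranges that overlapped. *Tubb5* accounted for 78.5% ± 0.813 of the β sum in WT and 69.5% ± 0.822 in mutant cells, *Tubb6* for 0.909% ± 0.107 and 5.65% ± 0.347, and *Tubb2a* for 0.632% ± 0.0803 and 1.90% ± 0.0723. *Tuba1b* accounted for 54.4% ± 1.62 of the α sum in WT and 42.9% ± 0.824 in mutant cells. *Tuba4a* went from 16.1% ± 0.162 to 22.3% ± 1.10 and *Tuba1c* from 11.3% ± 0.398 to 15.7% ± 0.559, while *Tuba1a* stayed within its spread at 18.2% ± 1.52 and 19.1% ± 1.00. No test was made on the sums and shares. The share of *Tubb6* rests on values that led to its choice, and these also enter the β sums and the other β shares.

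**Figure D4:**
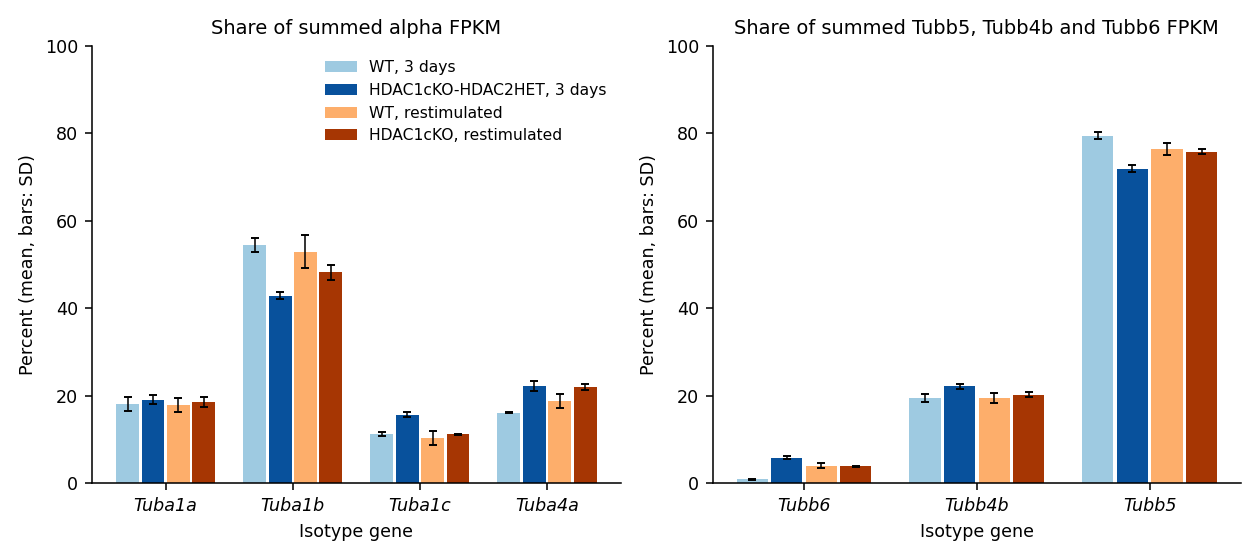
Mean share of each α isotype in the summed α FPKM (left) and of *Tubb6*, *Tubb4b*, and *Tubb5* in their own sum (right), in percent, with bars of 1 SD over 4, 4, 3, and 3 libraries. The share of *Tubb6* is 0.920% in WT and 5.86% in HDAC1cKO-HDAC2HET cells after 3 days and 4.05% and 3.92% in restimulated WT and HDAC1cKO cells.

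Other genes of the microtubule system were described by list beside the isotypes, and each count of these lists is to be read against the 24.2% of all genes that rose and the 27.6% that fell. Of the 11 other tubulin genes, 4 could be tested, and 2 rose and 1 fell. The largest rise was *Tuba8*, an α-tubulin of restricted expression, from 0.133 ± 0.0448 to 0.866 ± 0.246 FPKM (SD, n = 4; log2 fold change 2.03, SE 0.24, limma's adjusted p = 2.57e-04), still far below the major α isotypes. The largest fall among the 4 tested was the γ-tubulin gene *Tubg2*, from 0.860 ± 0.206 to 0.417 ± 0.0786 FPKM. The β-tubulin gene *Tubb4a* had a value in only 3 libraries of each group and was not tested. It ranged from 1.32 to 1.73 FPKM in WT and from 0.266 to 0.412 FPKM in mutant libraries, a larger fall than that of *Tubg2*. In restimulated WT and HDAC1cKO cells *Tubb4a* averaged 1.18 and 0.693 FPKM (n = 3). *Tubg1*, the other γ-tubulin and the abundant gene of the pair, rose by a log2 fold change of 0.29 (SE 0.05, limma's adjusted p = 0.00161).

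Folding of new tubulin needs the chaperonin CCT, prefoldin, and tubulin cofactors, and 20 of the 21 genes on that list were tested. Of these 12 rose and 5 fell, with a median of 0.27. The risers included all 8 CCT subunits, led by *Cct3*, which went from 199 ± 2.89 to 285 ± 24.3 FPKM (log2 fold change 0.51, SE 0.06, limma's adjusted p = 2.47e-04). The largest fall was *Tbcel*, a relative of cofactor E, from 10.4 ± 1.89 to 6.81 ± 0.612 FPKM. CCT also folds actin and other proteins, so its genes are not specific to tubulin.

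Of 13 genes tested for tubulin modification and autoregulation, 6 rose and 3 fell. *Svbp*, the partner of the vasohibins that cut the terminal tyrosine from α-tubulin, rose most, from 22.3 ± 1.61 to 56.7 ± 4.71 FPKM (log2 fold change 1.34, SE 0.07, limma's adjusted p = 5.98e-06). *Agbl3*, a carboxypeptidase, fell most, from 1.10 ± 0.179 to 0.459 ± 0.109 FPKM. *Ttc5*, which recognizes nascent tubulin chains in autoregulation, rose by a log2 fold change of 0.13 (SE 0.03, limma's adjusted p = 0.0155).

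Of 16 microtubule nucleation genes tested, 1 rose and 7 fell, and the median was -0.20. *Tubgcp5*, a subunit of the γ-tubulin ring complex, fell most, from 8.27 ± 0.648 to 5.86 ± 0.165 FPKM, and *Haus7* of the augmin complex was the gene that rose, from 20.2 ± 0.432 to 22.4 ± 1.30 FPKM. Among 23 microtubule-associated and stathmin genes 8 rose and 4 fell, with a median of -0.01. *Clip2*, which binds growing microtubule ends, rose most, from 3.35 ± 0.593 to 10.8 ± 0.233 FPKM, and *Map2*, a dendritic microtubule-associated protein, fell most, from 0.649 ± 0.0989 to 0.0874 ± 0.0392 FPKM.

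**Figure D5:**
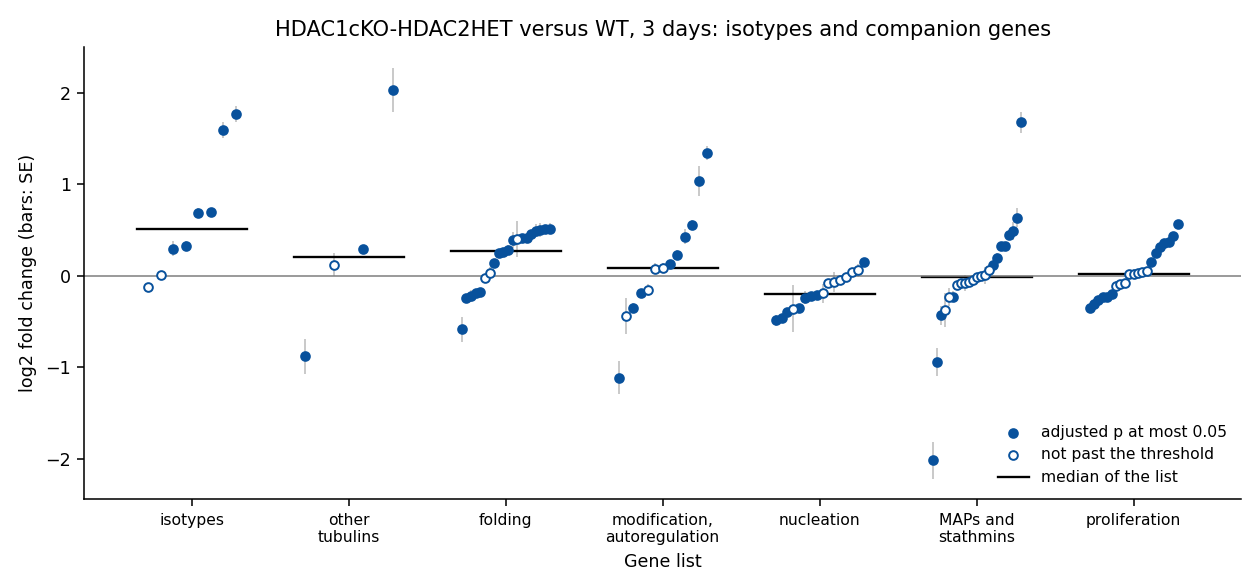
log2 fold change in HDAC1cKO-HDAC2HET over WT cells for each tested gene of the isotype list without *Tubb6* and of 6 other lists, with bars of 1 standard error, filled points past the threshold, and a line at the median of each list. The medians are 0.51 for the isotypes, 0.27 for the folding genes, and -0.20 for the nucleation genes.

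Because tubulin transcripts move with the cell cycle and could also come from other cells, proliferation genes and cell type markers were read from the same fit. Of 21 proliferation genes 7 rose and 6 fell, near the shares of all genes (24.2% and 27.6%), with a median of 0.02, and their summed level was 2378 to 2548 FPKM in WT and 2425 to 2534 FPKM in HDAC1cKO-HDAC2HET libraries. *Ccnb1*, the mitotic cyclin B, rose most (log2 fold change 0.57, SE 0.04, limma's adjusted p = 1.47e-05), and *Kif11*, a spindle motor, fell most (-0.36, SE 0.05, limma's adjusted p = 3.80e-04). Of the 8 T cell markers 2 rose and 6 fell, and their sum was 1420.0 to 1510.0 FPKM in WT and 1361 to 1403 FPKM in mutant libraries. Both CD8 T cell markers rose, with a summed level of 3.28 to 5.96 FPKM in WT and 11.7 to 15.2 FPKM in mutant libraries. The 4 of 5 B cell markers with a value in every library summed to 0.497 to 0.945 FPKM in WT and 2.78 to 4.38 FPKM in mutant libraries, and of the 2 that could be tested *Cd79b* rose. The sums of the 5 of 7 myeloid, 2 of 4 erythroid, and 5 of 8 stromal markers with a value in every library stayed under 1 FPKM in these 8 libraries. *Cd68*, outside the myeloid sum, was 2.29 to 3.12 FPKM in the 3 WT libraries with a value and 1.86 to 4.496 FPKM in the mutant libraries. The part of these markers in the isotype values was not tested, and in bulk RNA a change in the share of cells with a transcript and a change of its level per cell cannot be told apart.

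The second comparison asked the same of cells that lack HDAC1 alone, after restimulation. None of the isotypes passed the threshold: 0 of 6 did (limma, adjusted p), as did 0.0718% of the 13931 genes tested. At an unadjusted p under 0.05 there was 1 of 6, *Tuba4a*, against 14.4% of all genes. All 6 log2 fold changes were above 0, between 0.06 and 0.42, with a median of 0.23 beside -0.03 for all genes. The share of all genes above 0 was not counted. WT restimulated replicate 1 had the lowest WT value for each of these 6. Without it they lay between -0.16 and 0.32, with *Tuba1b* below 0. With a covariate for *Xist*, *Tubb4b*, *Tuba1b*, and *Tuba1c* were below 0. 

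*Tubb6* read 32.9, 40.4, and 30.3 FPKM in restimulated WT and 40.6, 35.9, and 35.9 in HDAC1cKO libraries. The groups overlapped, and the difference on the log2 scale was 0.13 (SE 0.13). Its 4 group means thus rank as WT after 3 days, restimulated WT (34.6 ± 5.26 FPKM, SD, n = 3), HDAC1cKO (37.5 ± 2.73, SD, n = 3), and HDAC1cKO-HDAC2HET (62.6 ± 3.79, SD, n = 4), and the middle pair did not differ beyond its spread.

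*Tuba4a* came closest to the threshold. It read 54.8, 70.0, and 66.0 FPKM in restimulated WT and 87.2, 85.7, and 81.9 in HDAC1cKO libraries, with no overlap, and its log2 fold change was 0.42 (SE 0.10, limma's adjusted p = 0.205). Without WT restimulated replicate 1, its lowest value, the log2 fold change was 0.32 (limma's adjusted p = 0.139), and with the variance estimated over all 14 libraries *Tuba4a* passed (limma's adjusted p = 0.00951). *Tuba4a* was read by position in all 3 HDAC1cKO libraries and in 1 of the 3 WT libraries, and the lowest shared span accepted for it anywhere, 0.853, was the lowest of all isotypes.

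*Tuba1a* was, of the 6 isotypes tested, the other whose groups did not overlap, with 52.6, 62.6, and 66.1 FPKM in restimulated WT and 76.7, 70.9, and 66.5 in HDAC1cKO libraries. Its log2 fold change was 0.24 (SE 0.11, limma's adjusted p = 0.380). The share of all genes with no overlap in this direction was 9.97%. *Tuba1c* read 28.8, 43.5, and 32.3 against 43.9, 45.0, and 40.4 FPKM, *Tubb4b* 135, 196, and 172 against 205, 196, and 179 FPKM, and *Tubb5* 564, 710.3, and 696 against 768, 709, and 696 FPKM. Their ranges overlapped, and the log2 fold changes were 0.33, 0.22, and 0.15 with SEs of 0.16, 0.15, and 0.12. *Tuba1b* read 132, 199.9, and 215 in WT and 179, 199.7, and 178 FPKM in HDAC1cKO libraries, and its log2 fold change changed from 0.06 to -0.16 without WT restimulated replicate 1.

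*Tubb2a* and *Tubb2b* were incomplete in the second experiment. In WT restimulated replicate 1 a single assembled locus at 12.2 FPKM (chromosome 13, 34074288 to 34130407) covered both genes, and in HDAC1cKO replicate 1 *Tubb2b* lay in a longer locus at 9.50 FPKM that shared 0.113 of the joint span, the nearest match that was not accepted. In the other libraries *Tubb2a* read 8.95 and 13.5 FPKM in WT and 18.9, 15.9, and 15.2 in HDAC1cKO cells, and *Tubb2b* 3.81 and 5.04 FPKM in WT and 6.11 and 6.31 in HDAC1cKO cells. For neither gene did the groups overlap, but groups this small separate easily. The share of all genes that do so was not counted for these libraries. Fitted with the missing libraries left out, the log2 fold changes were 0.59 (SE 0.21, limma's adjusted p = 0.331) and 0.49 (SE 0.20, limma's adjusted p = 0.385).

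Companion lists in the second experiment had no gene past the threshold: 0 of 6 other tubulin, 0 of 19 folding, 0 of 14 modification, 0 of 16 nucleation, 0 of 23 microtubule-associated, and 0 of 21 proliferation genes passed (limma, adjusted p). Since 0.0718% of all 13931 genes passed, these counts are near that share and do not set the lists apart. Both CD8 T cell markers also missed the threshold, with sums of 3.80 to 4.86 FPKM in WT and 6.52 to 7.30 FPKM in HDAC1cKO libraries. The median log2 fold changes were 0.09 for the folding genes and -0.17 for the nucleation genes. *Xist* differed between the groups of this experiment, as given above, and with a covariate for *Xist* the log2 differences of *Tubb6*, *Tubb4b*, *Tuba1b*, and *Tuba1c* turned to -0.11, -0.03, -0.11, and -0.02, in a fit with few libraries of each kind.

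The difference between the 2 log2 fold changes was fitted over all 14 libraries. For *Tubb6* it was 2.69 (SE 0.15), which is the description that led to the choice of the gene. Of the 6 other isotypes with a value in every library, 0 passed the threshold (limma, adjusted p) while 14.6% of 13489 genes did. At an unadjusted p under 0.05 there were 2 isotypes and 28% of all genes. *Tuba1c* differed by 0.37 (SE 0.15, limma's adjusted p = 0.121) and *Tuba4a* by 0.26 (SE 0.11, limma's adjusted p = 0.139). Without WT restimulated replicate 1 both passed, at 0.50 (limma's adjusted p = 0.0192) and 0.36 (limma's adjusted p = 0.0112). *Tubb2a* and *Tubb2b*, with missing libraries left out, differed by 1.18 (SE 0.21, limma's adjusted p = 0.00426) and 1.10 (SE 0.18, limma's adjusted p = 0.00367), so their log2 fold change was larger in the HDAC1cKO-HDAC2HET experiment. Among the companion genes named, the difference passed for *Svbp* (0.91, limma's adjusted p = 0.00193), *Clip2* (1.02, limma's adjusted p = 0.00199), *Tuba8* (1.53, limma's adjusted p = 0.0268), and *Tubgcp5* (-0.45, limma's adjusted p = 0.00932). Loss of an *Hdac2* allele and the restimulation cannot be told apart in these differences.

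WT cells of the 2 cultures were then compared. *Tubb6* was 8.85 ± 0.997 FPKM (SD, n = 4) after 3 days and 34.6 ± 5.26 (SD, n = 3) after restimulation, a ratio of 3.90 with no overlap, and the difference on the log2 scale was 1.95 (SE 0.11), given with no test since these values belong to the choice of the gene. *Tubb5* was lower after restimulation, with a log2 fold change of -0.23 (SE 0.07, limma's adjusted p = 0.0274), and the other 5 of the 6 isotypes tested did not pass. Among all genes 25.9% were higher and 12.9% lower, and the median was 0.10 on the log2 scale, so of these 6 isotypes only *Tuba4a* lay above the shift of all genes, at 0.19 (SE 0.08, limma's adjusted p = 0.0715). With medians set equal, *Tubb6* was at 1.81, again with no test, *Tubb5* at -0.37, *Tubb4b* at -0.33, and *Tuba1c* at -0.32, and these last 3 passed, while the calls over all genes went from 3498 higher and 1737 lower to 2286 higher and 2768 lower. With missing libraries left out, *Tubb2a* was higher after restimulation by 0.83 (SE 0.16, limma's adjusted p = 0.00164) and *Tubb2b* lower, at -0.37 (SE 0.13, limma's adjusted p = 0.0466). The members of the pair thus had opposite signs here and the same sign in HDAC1cKO-HDAC2HET cells. Only 2 restimulated WT libraries had a value for each gene. The part of reads that fit both genes in these opposite signs was not tested. 

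Restimulated WT cells thus had *Tubb6* at 4.05% ± 0.595 (SD, n = 3) of the sum of *Tubb5*, *Tubb4b*, and *Tubb6*, against 0.920% ± 0.109 (SD, n = 4) after 3 days. Beside this, 11 of 21 proliferation genes were lower and 0 higher in restimulated WT cells, against 12.9% of all genes that were lower and 25.9% that were higher. Their sum went from 2378 to 2548 FPKM down to 1969 to 2234 FPKM. *Stmn1*, which sequesters tubulin dimers, was lower by a log2 fold change of -1.63 (SE 0.09, limma's adjusted p = 3.88e-08; chosen after its values were seen). Without WT restimulated replicate 1, *Tuba4a* passed (0.29, limma's adjusted p = 0.00284) and the *Tubb5* result was lost (-0.12, limma's adjusted p = 0.0782); the latter was also lost without WT replicates 1, 2, or 3 (limma's adjusted p = 0.0515 to 0.0603). Every WT library of a culture came from the same experiment, so culture and experiment cannot be told apart. The same holds for any difference in how FPKM was estimated in the 2 experiments.

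The genes most like *Tubb6* across the 14 libraries, by Pearson correlation of log2 values among 10186 genes with a mean of at least 1 FPKM, were *Nol4l* (r = 0.976), *Fhl2* (r = 0.974), *Pcyt1a* (r = 0.973), *Ppp1r16a* (r = 0.973), and *Uchl1* (r = 0.973). *Fhl2* is a LIM domain scaffold protein, *Pcyt1a* a rate-limiting enzyme of phosphatidylcholine synthesis, *Ppp1r16a* a regulatory subunit of protein phosphatase 1, and *Uchl1* a ubiquitin hydrolase. *Fhl2* had 3.14 ± 0.216, 15.5 ± 0.719, 10.02 ± 1.67, and 13.2 ± 1.07 FPKM in WT, HDAC1cKO-HDAC2HET, restimulated WT, and HDAC1cKO cells, and *Uchl1* 0.954 ± 0.141, 4.34 ± 0.606, 2.94 ± 0.311, and 3.04 ± 0.390 FPKM. The libraries fall into 4 groups, so these coefficients mainly describe the order of group means.

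The position of the isotypes in the genome was examined for changes of nearby genes, a description chosen after the isotype values were known. Of 44 other protein-coding genes within 100 kb of an isotype gene that were tested in the first comparison, 15 rose, 14 fell, and 15 did not pass, beside 24.2% and 27.6% of all genes that rose and fell, and their median was 0.01 on the log2 scale. The largest rise was that of *Prph* near *Tuba1c*, at 2.85 (SE 0.26, limma's adjusted p = 6.72e-05), more than *Tuba1c* itself, and the largest fall that of *Grin1* near *Tubb4b*, at -1.42 (SE 0.32, limma's adjusted p = 0.00655). *Ier3* and *Flot1* near *Tubb5*, which did not pass the test, rose by 1.62 and 1.52 (SE 0.31 and 0.09). Next to *Tubb6*, *Impa2* and *Afg3l2* rose by 0.55 (SE 0.05) and 0.22 (SE 0.04), and *Bphl*, which ends just beyond *Tubb2a*, fell (-0.62, SE 0.07) while *Tubb2a* rose.

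The sequence before the start site is shown for the isotypes searched whose upstream bases lie outside annotated exons, since these include genes that rose and *Tubb5*, which did not pass the test. *Tubb6* and *Tubb2b* were not searched. The windows were taken from the RefSeq promoter table of GRCm38.p6 and are written on the strand of the gene, ending just before the start site or, in *Tubb5*, at the last base outside annotated exons. Capitals mark any of 4 motifs searched on both strands, each found by its letters alone. The letters TATAAA stand for the TATA box. The CCAAT box has the letters of its name. The letters GGGCGG stand for the GC box. The cAMP response element is TGACGTCA.
Tubb2a, chr13:34078009-34078128, minus strand: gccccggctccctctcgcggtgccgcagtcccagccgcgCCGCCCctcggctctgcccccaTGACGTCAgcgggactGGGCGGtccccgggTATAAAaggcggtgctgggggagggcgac
Tuba4a, chr1:75219295-75219414, minus strand: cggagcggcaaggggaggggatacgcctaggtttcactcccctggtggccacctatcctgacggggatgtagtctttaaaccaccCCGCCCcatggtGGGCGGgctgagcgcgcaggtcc
Tuba1c, chr15:99029771-99029890, plus strand: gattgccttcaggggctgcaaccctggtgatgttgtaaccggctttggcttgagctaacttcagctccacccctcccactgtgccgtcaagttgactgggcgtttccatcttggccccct
Tubb4b, chr2:25224703-25224822, minus strand: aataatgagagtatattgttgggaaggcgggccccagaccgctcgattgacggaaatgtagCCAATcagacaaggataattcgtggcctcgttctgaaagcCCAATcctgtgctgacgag
Tubb5, chr17:35838307-35838421, minus strand: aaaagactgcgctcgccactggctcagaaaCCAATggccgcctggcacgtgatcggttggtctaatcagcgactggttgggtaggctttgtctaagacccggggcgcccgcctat

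In *Tubb2a* the window held a TATA box at -29, a cAMP response element at -59, and GC boxes at -43 and -81 from the start site, while *Tuba4a* held GC boxes at -23 and -35. Over the 250 bases before the start site, which were searched, *Tubb4b* held 5 CCAAT boxes and *Tubb5* 2, and *Tuba1c* 1, which lies before the window shown. Of all 32851 promoters in the promoter table, searched over the same 250 bases, 12.4% held the TATA box and 33.9% the CCAAT box. The GC box was in 32.7% and the cAMP response element in 1.55%. The genes that rose and were searched, which leaves out *Tubb6* and *Tubb2b*, had no motif of these 4 in common. The GC box came closest, in *Tubb2a*, *Tuba4a*, *Tubb4b* (at -162), and *Tuba1a* (at -63) but not in *Tuba1c*. Of the searched isotypes that did not pass, *Tuba1b* held it and *Tubb5* did not. A match of letters is no evidence of a bound factor. The window of *Tuba4a* lies within the span of longer annotated transcripts of the gene but not in their exons.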

How the data were processed

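Libraries had been sequenced by the study as 50-base single reads from a stranded mRNA kit. According to the methods, reads were mapped to mm10 with TopHat 2.0.13 and values were estimated with Cufflinks 2.2.1. The methods do not say whether the libraries of both experiments were processed alike. The authors deposited FPKM values with confidence bounds, and no counts were used here. The submitters' processing notes also name STAR 2.5.2b, Subread 1.5.1, R 3.4, and edgeR, which do not make FPKM of this form. Because assembly was done per library, an isotype could be a named row or an unnamed locus. Unnamed loci were matched to GENCODE vM21 spans at 0.8 of the joint span or more. Per-library totals were estimated from the bounds of low genes, of which 61.8% to 68.9% gave whole fragment numbers within 0.05. The bounds apply within a library and do not cover the spread between libraries. For abundant genes they were not counting error alone. The half-width for *Tubb5* was 0.753% in WT replicate 3 (33900000 fragments) and 4.22% in WT restimulated replicate 1 (34200000 fragments).

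Group values are the mean and SD of FPKM. Fold changes are of log2(FPKM + 0.1), which understates changes of low genes, fitted with limma 3.58.1 in R 4.3.3 (trended eBayes, 2-sided, Benjamini-Hochberg over genes with a mean of at least 0.1 FPKM and a value in every library of the fit). Each experiment was fitted alone; the difference of fold changes and the WT cultures were fitted over 4 group means. A run of the fits on simulated data used independent noise for each gene and changed only a small set of genes. That run does not cover a shifted library or changes in many genes, as in these data. Replicates are separate samples by their labels, which do not tie them to single animals, so p-values measure the spread between these samples, which may be partly technical. The alternatives changed the pseudocount, filter, scaling, variance model, sample weights, covariates, locus match, and each library in turn; leaving missing libraries out of the fit was chosen after seeing the data. The members, lists, and tests were chosen with earlier results of these data known. All members are described; of each companion list the largest rise and fall past the threshold in HDAC1cKO-HDAC2HET cells are named, with the 5 genes most like *Tubb6*, and a few others named for their role after their values were known. Columns of the study's own comparisons were not used. Figures were drawn with matplotlib 3.10.9. Coding ends of the α genes are not reported here. The WT culture comparison of *Tubb6* had been planned as a test and is given without it, because its values belong to the choice of the gene.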

Additional observations from a re-analysis of the deposited data

Results flagged for a closer look

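In groups of 4 libraries, a value far from the other 3 by Dixon's criterion occurred for 3 of the isotype groups tested, and chance alone marks about 1 group in 20. Such groups are the WT and HDAC1cKO-HDAC2HET groups of the first experiment, where 9 isotypes had a value in all libraries. *Tubb6* was 56.9 FPKM in HDAC1cKO-HDAC2HET replicate 3, below the 64.0 to 65.1 FPKM of the other mutant libraries; that library also had the lowest estimated depth, 22600000 fragments. *Tuba1b* was 197 FPKM in WT replicate 2, above the 182.7 to 184.8 FPKM of the other WT libraries. *Tuba1c* was 40.6 FPKM in WT replicate 3, above the 38.0 to 38.4 FPKM of the others.

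The log2 fold changes of *Tubb2a* and *Tubb2b* differed between the 2 experiments by 1.18 and 1.10, in the fit that leaves libraries without a locus of the gene out and that was added after seeing the data (limma's adjusted p = 0.00426 and 0.00367). In WT restimulated replicate 1 both genes were merged into a single locus, so *Tubb2a* rests on 2 and 3 restimulated libraries and *Tubb2b* on 2 and 2. The difference of *Tubb6* led to its choice and is not counted here.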

How the results depend on the processing

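In the HDAC1cKO-HDAC2HET experiment 6 isotypes passed the threshold and between 4 and 7 did under the alternatives, the 4 being of 6 isotypes in the fit over all 14 libraries and the range with a library left out 6 to 7. In the HDAC1cKO experiment the count was 0, also with each library left out, and 1 in the fit over all libraries. For the difference between the experiments the count was 0, and it was 2 with sample weights, 1 with the sex covariate, 2 with missing libraries left out, and 0 to 2 with a library left out. For WT between the cultures, *Tubb6* not counted, it was 1, and 3 with median scaling, quantile normalization, the sex covariate, or missing libraries left out, and 0 to 3 with a library left out; it was 0 without WT 3-day replicate 1, 2, or 3 and 3 without WT restimulated replicate 2, and the isotype that passed was *Tuba4a* in place of *Tubb5* with sample weights and without WT restimulated replicate 1. The *Tubb6* difference was 2.69, 2.92 with the sex covariate, and 2.57 to 2.78 with a library left out. 

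Signs turned in these cases. In the HDAC1cKO comparison *Tubb6* was -0.11, *Tubb4b* -0.026, *Tuba1b* -0.11, and *Tuba1c* -0.016 with the sex covariate, and *Tuba1b* was -0.016 with quantile normalization, -0.094 with sample weights, and -0.16 to 0.19 with a library left out. With a library left out *Tubb5* was -0.0069 to 0.024 in the HDAC1cKO-HDAC2HET comparison, and the differences between the experiments were -0.012 to 0.26 for *Tubb4b*, -0.014 to 0.15 for *Tuba1a*, and -0.32 to 0.036 for *Tuba1b*. Between the WT cultures *Tuba1a* was 0.022 and *Tuba1b* 0.074 with sample weights, and they were -0.12 to 0.048 and -0.21 to 0.15 with a library left out. The cause of these changes was not tested. With the replicate number as a block *Tuba1a* missed the threshold in HDAC1cKO-HDAC2HET cells (adjusted p = 0.0510) and 5 isotypes passed, with 0 in the HDAC1cKO experiment and 0 for the difference, as without it; the block changed no other isotype call. The numbers share no pairing: correlations of deviations between same-numbered WT and mutant libraries were -0.03 to 0.07. The sex covariate could not be fitted in the first experiment, where all libraries were alike, and named rows alone gave no isotype with a value in every library. Median scaling turned the calls over all genes between the WT cultures from 3498 higher and 1737 lower to 2286 higher and 2768 lower. Depth is known only as an estimate.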
